A study of Mus musculus with 3 samples.

Results

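TEC genes with a mean of at least 30 TPM were examined in chromatin-bound RNA of mouse macrophages. TEC is a provisional gene type of the GENCODE annotation, given to clusters of expressed sequence tags that may mark a gene but still await experimental proof. A gene was taken when all of its transcripts carry that type and when its mean over the 3 gene tables reached 30 TPM (transcripts per 1000000, a level per length scaled to that total in each library). Of 3213 TEC genes, 52 met the rule, or 1.62%, out of 2973 annotated genes of any type at that level. The 52 genes were chosen by their mean TPM, so their levels are given as a description with no test.

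The cells were primary macrophages grown from bone marrow of C57BL/6J mice. All 3 libraries belong to 1 group, cells given 100 ng/ml of Lipid A (the TLR4-activating part of bacterial lipopolysaccharide) during 12 h, then kept 12 h without it and harvested at minute 0 of a renewed exposure. No unexposed group was analysed here, so the values describe this state and no response to Lipid A. The replicates carry 1 donor identifier, and nothing in the labels says that they came from separate animals, so the spread between them may be technical.

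RNA of the chromatin fraction is rich in unfinished transcripts, which still hold introns. Most genes of higher animals consist mainly of introns, and these are transcribed together with the exons and later removed. A TEC model inside an intron therefore shares its bases with the unspliced transcript of the gene around it, here called the host. In these libraries, reads of a TEC transcript and of a host's unspliced RNA on the same strand cannot be told apart.

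Depth was 11958978, 17283529 and 19475027 expected counts (estimated reads per gene, which need not be whole) in replicates 1, 2 and 3. The 52 genes took 66694, 79406 and 84576 of these, or 0.565%, 0.462% and 0.435% of the counts on genes. All TEC genes together took 2.17%, 1.85% and 1.87%. Macrophage markers summed to 1003, 1283 and 1155 TPM, and each of the 10 reached 1 TPM in all 3 libraries. The 10 fibroblast or stromal markers summed to 0.2 and 2.15 TPM in replicates 1 and 2 and to 668 TPM in replicate 3, so that library stands apart. In such bulk samples, more cells of a type and more RNA per cell cannot be told apart. The neutrophil, T cell and B cell lists each summed to under 1 TPM in every library, with Mpo, Cd3e and Cd3g at 0 throughout. Without replicate 3 the rule found 53 genes, which include all 52.

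The highest gene by far was Gm43197 (chromosome 6, 3336772 to 3339354, minus strand, GRCm38/mm10), at 143, 136 and 113 TPM in replicates 1, 2 and 3. It was the only TEC gene above 100 TPM. It lies wholly in an intron of Gm20559, a long non-coding gene, whose own level was 524, 498 and 451 TPM.

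Gm49730 (chromosome 16, 35866179 to 35867951, minus strand) came next, at 86.1, 86.3 and 74.2 TPM. Its model shares 110 bases with exons of Parp14, an interferon-induced ADP-ribosyltransferase, whose level was 724 ± 82.3 TPM (SD, n = 3). Gm37589 (chromosome 3, 60535751 to 60539744, plus strand) was at 86.2, 78.9 and 67.9 TPM, inside an intron of the splicing regulator Mbnl1 at 433 ± 54.3 TPM. The 3 highest genes thus lay in hosts at over 400 TPM.

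Gm45640 (chromosome 8, 90876581 to 90878476, plus strand) had 69.1, 82.4 and 63.9 TPM and lies in Chd9, a chromatin remodeller gene. 9430034N14Rik (chromosome 1, 156026223 to 156030007, minus strand) had 75.4, 69.1 and 60.9 TPM and lies in Tor1aip1, which encodes a protein of the inner nuclear membrane. Gm44981 (chromosome 6, 91711336 to 91713278, minus strand) had 59.5, 64.5 and 52.8 TPM. It lies on the strand opposite to Slc6a6, the taurine transporter gene, and was the highest of the 5 genes in that arrangement.

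5330406M23Rik lies in an intron of the long non-coding gene Lncpint and had 65.6, 57.2 and 46.4 TPM. Gm44291, in Dennd1a (an activator of the small GTPase Rab35), had 65.3, 50.1 and 49.4 TPM. Gm37390, in Itpkb (an inositol trisphosphate kinase gene), had 61.3, 56.2 and 42.6 TPM. All 3 were highest in replicate 1 and lowest in replicate 3.

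Gm49125, in the phospholipase gene Ddhd1, had 59.4, 48.3 and 47.6 TPM. Gm40309, in the ubiquitin-conjugating enzyme gene Ube2k, had 47.3, 51.9 and 50.2 TPM. Gm37954, in the GTPase-activating protein gene Srgap2, had 53.6, 49.0 and 46.7 TPM. From the seventh to the twelfth gene in this order each mean lay within the SD of its neighbour, so that the order within these is not resolved.

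Levels were crowded toward the threshold. Only 10 of the 52 genes had a mean of 50 TPM or more, 42 were between 30 and 50 TPM, and the median was 41.6 TPM. In 39 of the 52 every library was at 30 TPM or more. The lowest genes inside the threshold were Gm47218 in Max (30.4 TPM), Gm43775 in Rbm47 (30.3 TPM) and Gm37226 after Mthfsl (33.2, 30.7 and 26.1 TPM, a mean at the threshold itself). Just outside it were Gm45084 in Smg1 (29.6 ± 1.67 TPM, n = 3), E330034L11Rik after Ensa (29.5 ± 1.87 TPM) and Gm42822 in Ppp3ca (28.9 ± 4.16 TPM). These 6 genes do not differ beyond their spread. The 12 genes not described singly in this text had means from 30.6 TPM (Gm45223, in Picalm) to 45.6 TPM (Gm43980, opposite Tra2a).

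**Figure D1:**
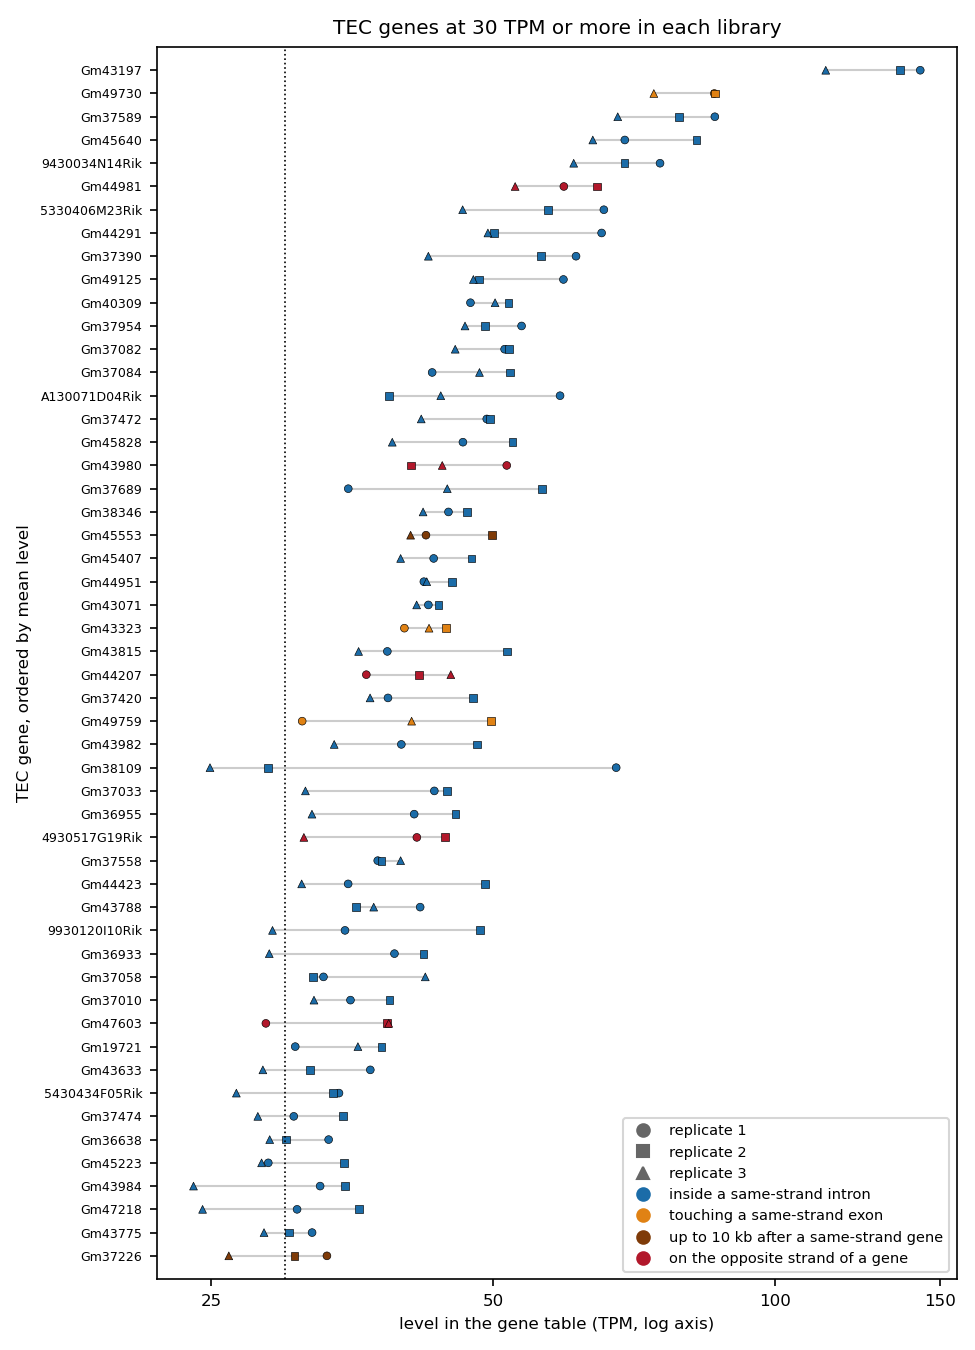
Level of each of the 52 TEC genes (rows, ordered by mean) in the gene tables of replicates 1, 2 and 3 (circle, square, triangle) on a log axis of TPM, coloured by position, with the grey line from the lowest to the highest library and the dotted line at 30 TPM. Gm43197 stands alone above 100 TPM, 38 of 52 genes have their lowest value in replicate 3, and Gm38109 has the widest spread. The 38 are not set beside a count over other genes.

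Every one of the 52 genes has a single exon, as do 3068 of the other 3161 TEC genes. Their lengths ran from 181 to 7350 bases with a median of 2083 bases, beside 1960 bases for the other TEC genes. Median GC content was 44.1% beside 42.2%. RefSeq lists 2 of the 52 symbols, Gm40309 and Gm44981, both as long non-coding RNA, and 112 of the other 3161. Chromosome 6 held 13 of the 52 genes and 303 of all 3213, and chromosome 1 held 10 and 475.

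The position of the genes, which the rule did not use, was read from GENCODE M21, the annotation of the deposited tables. Of the 52 genes, 42 (80.8%) lay wholly inside a same-strand gene without touching any of its exons. Another 3 touched an exon of a same-strand gene: Gm49730 in Parp14, Gm43323 in Rbm47 (276 bases, an RNA-binding protein gene) and Gm49759 in Pkm (767 bases, pyruvate kinase). The 5 on the opposite strand of a gene were Gm44981 and 4930517G19Rik in Slc6a6, Gm43980 in Tra2a, Gm44207 in Plxna1 and Gm47603 in 2010111I01Rik. The remaining 2, Gm45553 and Gm37226, began within 10 kb downstream of a same-strand gene. None was free of a gene by these criteria.

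Among all TEC genes the picture was different by level. The share inside same-strand introns was 42.4% of the 1357 TEC genes at 0 TPM, 41.1% of the 755 above 0 and under 1 TPM, 56.6% of the 502 at 1 to 5 TPM and 75.5% of the 547 at 5 to 30 TPM. The share with no gene near, by the same criteria, was 35.9%, 22.9%, 5.58% and 1.65% in the same order, and 0 of 52 at 30 TPM or more. These shares describe models that often lie in the same hosts and are not independent of each other. Leaving out any 1 library and choosing the genes again gave 39 to 43 in same-strand introns, out of 49 to 53. The share did not hold in the read-based tables: of the 128 TEC genes at 30 TPM or more there, 68 (53.1%) lay in same-strand introns, beside 50.6% of all TEC genes. It was 36 of 44 (81.8%) among the genes at that level in both tables and 32 of 84 (38.1%) among those reaching it in the read-based tables alone. Of these 84, 30 were under 500 bases long and 22 were at 0 TPM in the gene tables. The part of such genes in the lower share was not tested.

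**Figure D2:**
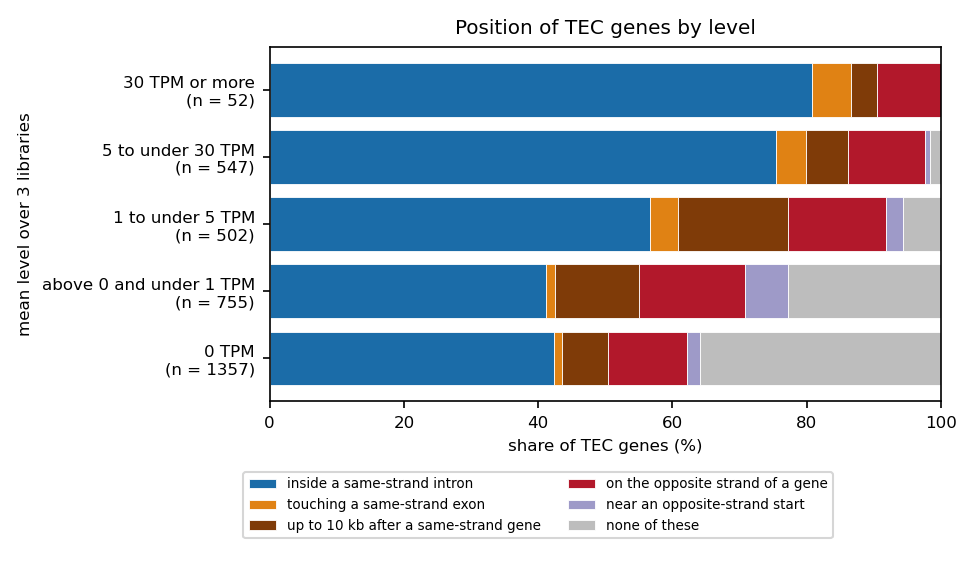
Share of TEC genes (x axis, %) in each position relative to protein-coding and long non-coding genes, for 5 ranges of mean level (y axis, TPM, with the number of genes). The blue part, inside a same-strand intron, is 42.4% at 0 TPM and 80.8% at 30 TPM or more, while the grey part, no gene near, goes from 35.9% to 0.

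Hosts of the 52 genes served varied functions. Lists of genes typical of activated macrophages and of nuclear processes held the host of 12 of the 52. The list of chromatin and transcription regulators held 7 of these 12, in 4 hosts: Chd9, Med13l (a Mediator subunit gene), and the ETS-family transcription factors Fli1 and Etv6. Of that list's 60 genes, 11 hold any same-strand TEC gene, 23 in all. The splicing and RNA processing list held 2, Gm37589 in Mbnl1 and Gm43980 opposite Tra2a, a splicing regulator gene.

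The immune lists held few TEC models. Of 56 interferon-stimulated genes, 55 were at 30 TPM or more, but only Parp14 holds a same-strand TEC gene at all. The phagocyte receptor list gave A130071D04Rik in Ptprc, which encodes the leukocyte phosphatase CD45, and the actin, GTPase and kinase list gave Gm36638 in Pik3r1, a regulatory subunit gene of phosphoinositide 3-kinase. Neither the TLR and NF-kB list nor the lysosome and lipid list held a host, and these lists have 2 genes and 1 gene with any same-strand TEC model. Lists thus differed in how many TEC models they could contribute.

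Levels of TEC genes were set against those of their same-strand hosts, both per length. The 45 genes with a same-strand host lay in 37 hosts, whose TPM values were themselves high: the median over the 45 pairs was 99.0 TPM. The ratio of gene to host had a median of 0.394 and ran from 0.0736 to 2.52. It was under 1 for 36 of 45. For the 318 other same-strand TEC genes whose host was at 30 TPM or more, the median ratio was 0.153 and none reached 1, but since the rule took the high ones this contrast is fixed by the choice. With replicate 3 left out the medians were 0.399 and 0.155.

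At the low end, A130071D04Rik had 58.9, 38.7 and 44.0 TPM against 717, 566 and 641 TPM for Ptprc, a ratio of 0.0736. Gm49730 stood at 0.114 of Parp14 and Gm45828 at 0.118 of Slc6a6. Each of these 3 was below its host in every library with a wide gap.

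At the other end, 9 genes were at or above the level of their host, in 6 hosts. For 6 of the 9 the host (Etv6, Fli1 or Mapkapk2) was itself under 30 TPM, so the rule fixed a mean above the host and the ratios are only a description. Gm43982 had 39.9, 48.1 and 33.8 TPM where Etv6 had 16.4, 16.4 and 15.6 TPM, a ratio of 2.52. Gm43984, further along the same host, had 32.7, 34.7 and 23.9 TPM, a ratio of 1.89. Etv6 was the lowest of all same-strand hosts, and the rule left room only for TEC genes above it.

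Gm37084 had 43.0, 52.1 and 48.3 TPM, and its host Mapkapk2, a kinase gene of the p38 pathway, had 24.7, 22.6 and 28.5 TPM (ratio 1.89). Gm37082 and Gm38346 exceeded Fli1 by ratios of 1.74 and 1.56. Gm40309 exceeded Ube2k by 1.39, and Gm37558 exceeded the nuclear import receptor gene Kpna4 by 1.26. The 3 hosts at 30 TPM or more were Ube2k (35.8 TPM), Kpna4 (30.5 TPM) and Zfp710 (40.4 TPM). They lie near the threshold, so the rule left little room below them either, and these ratios too are only a description. The libraries of Gm40309 and Gm37558 did not overlap with those of their hosts. Gm37474 in Fli1 (1.09) and Gm44951 in the zinc finger gene Zfp710 (1.07) did overlap with those of their hosts.

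The read-based tables gave other ratios. There, only Gm37082 of the 9 remained above its host, at 67.5 against 39.7 TPM, and Gm43982 had 34.6 TPM against 37.9 TPM for Etv6. The count of genes at or above their host was thus 9 in the gene tables and 2 in the read-based tables, the second being Gm38109. Without the hosts' retained-intron transcripts, which can only lower a host, it was 18.

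**Figure D3:**
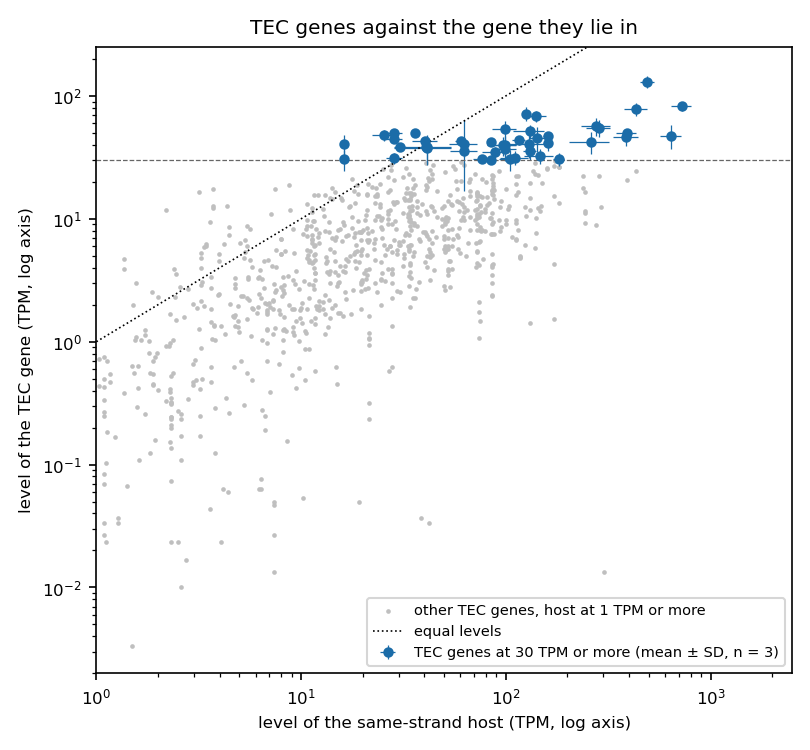
Mean level of same-strand TEC genes (y axis, TPM) against that of their host (x axis, TPM), both on log axes, for the 45 genes at 30 TPM or more (blue, mean ± SD, n = 3) and for other TEC genes above 0 whose host is at 1 TPM or more (grey); the dashed line is 30 TPM and the dotted line marks equal levels. Of the blue points, 36 lie right of the dotted line and 9 on or left of it.

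Over all 1412 same-strand intronic TEC genes with a host above 0 TPM, the level followed that of the host, with a Spearman correlation across genes of 0.846. It was 0.838 over the 1370 of them under 30 TPM and 0.383 over the 42 at 30 TPM or more, a range cut by the rule. Genes in 1 host share its value, and all values share the 3 libraries, so these are descriptions. Of the 521 whose host was under 1 TPM, 22 (4.22%) reached 1 TPM, and of the 342 whose host was at 30 TPM or more, 336 (98.2%) did.

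TEC genes in introns of an opposite-strand gene also followed its level. Over 172 of them with a host above 0 TPM the correlation was 0.820. In the 38 whose opposite-strand host was at 30 TPM or more the median level was 10.4 TPM, beside 11.0 TPM in the 342 same-strand ones. The median ratio to the host was 0.142 (quartiles 0.0455 and 0.251) beside 0.166 (quartiles 0.0948 and 0.266). Of the 38, 33 (86.8%) reached 1 TPM, beside the 98.2% given above. No source used here says whether the counting used strand, so for the 5 genes opposite to a host, reads of either strand cannot be told apart. Gm44981 also faces 117 exonic bases of Slc6a6, while 4930517G19Rik, Gm43980, Gm44207 and Gm47603 face no exon.

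Within their hosts, the 42 intronic genes began a median of 20.1 kb from the host's start (quartiles 6.34 and 43.6 kb). For the 306 other intronic TEC genes in hosts at 30 TPM or more this distance was 53.6 kb (quartiles 17.9 and 108 kb). The 42 were not limited by the level of the host, and 6 of them lie in hosts under 30 TPM, so the sets are not fully alike. The middle of the gene lay at a median of 28.6% of the host's span beside 43.4%, and 18 of 42 (42.9%) beside 88 of 306 (28.8%) lay in the first 25% of it. Taken per TEC gene, so that a host with several of them counts several times, the host's span had a median of 84.0 kb beside 137 kb. Intron length, taken in the same way, had a median of 26.5 kb beside 18.4 kb.

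There were 7 hosts with more than 1 of the 52 genes. In Fli1, a 121 kb gene, Gm37082 starts 5.68 kb from the host's start and had 49.7 ± 3.57 TPM. Gm37474, at 15.9 kb, had 31.1 ± 3.29 TPM, and Gm38346, at 32.5 kb, had 44.6 ± 2.43 TPM. Another TEC gene there, Gm38292, at 62.5 kb, was not at the threshold and had 13.0, 13.7 and 12.8 TPM. In all 3 libraries the order along Fli1 was therefore high, lower, high and lowest.

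Itpkb holds 3 of the genes, which follow each other along its own strand. Gm37033, the longest of the 52 genes at 7350 bases, had 43.3, 44.6 and 31.5 TPM. Gm37390 had the values given above, and Gm36933, 2.90 kb further on, had 39.2, 42.1 and 28.8 TPM. All 3 were lowest in replicate 3, as was Itpkb itself at 103, 110 and 83.9 TPM.

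Slc6a6 (372, 447 and 345 TPM) holds Gm45828 on its own strand at 46.4, 52.4 and 39.0 TPM. Gm44981, on the opposite strand, is separated from Gm45828 by 94 bases, and 4930517G19Rik, also opposite, had 41.4, 44.4 and 31.4 TPM. The 3 genes and the host all ran highest in replicate 2 and lowest in replicate 3.

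Dleu2, a long non-coding gene at 160 ± 8.17 TPM, holds Gm37472 (46.9 ± 4.35 TPM), which starts 0.879 kb from the host's start, and Gm37420 (41.0 ± 5.70 TPM) at 12.2 kb. In Rbm47, Gm43323 had 42.5 ± 2.19 TPM and Gm43775 had 30.3 ± 1.79 TPM. Rab43, a Rab GTPase gene at 36.6, 55.5 and 31.3 TPM, holds 9930120I10Rik (34.7, 48.4 and 29.1 TPM) and Gm44423 (35.0, 49.0 and 31.2 TPM), which differed by less than their spread. Etv6 holds the pair described above, and the opposite-strand TEC gene 1700051K13Rik, 210 kb from its start, had 6.61 ± 0.226 TPM.

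**Figure D4:**
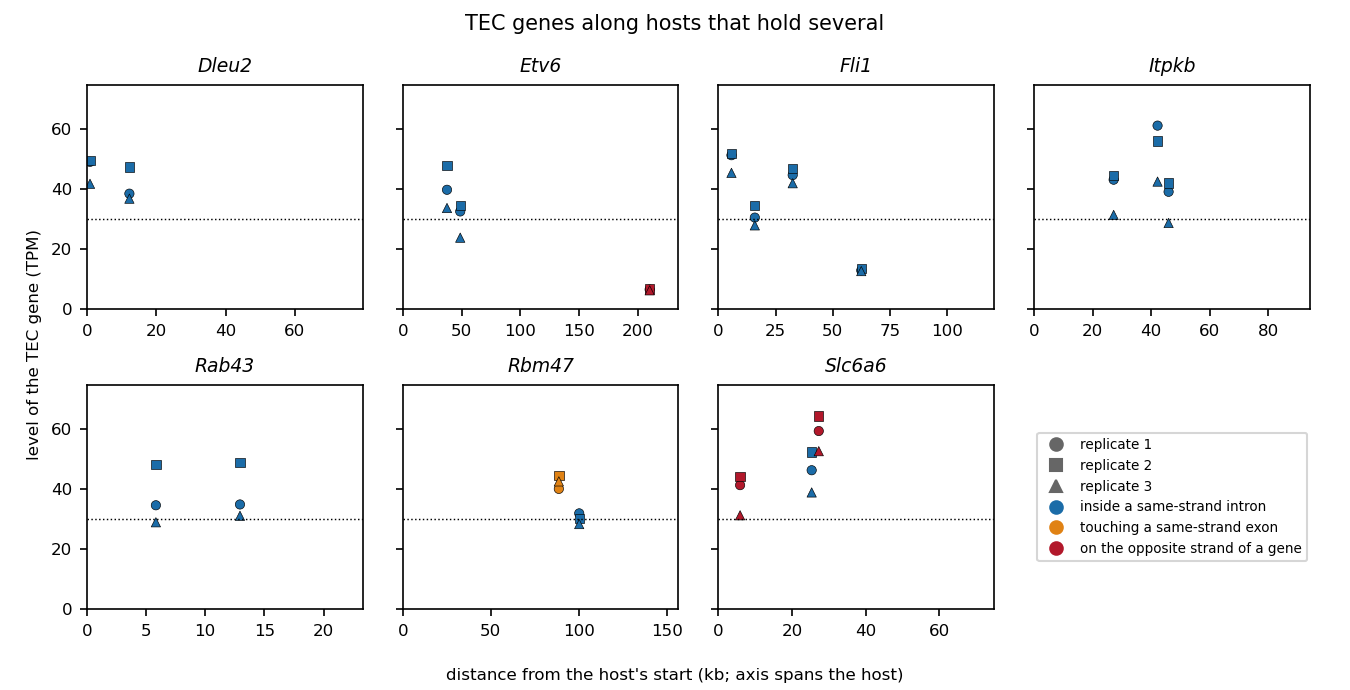
Level (y axis, TPM) of every TEC gene that lies in each of the 7 hosts with several of the 52 genes, against distance from the host's start (x axis, kb, spanning the host), in replicates 1, 2 and 3 (circle, square, triangle); the dotted line is 30 TPM. In Fli1 the 3 genes nearest the start are above Gm38292, and in Rab43 both genes share the high value of replicate 2.

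Spread between replicates was described on TPM and tested on counts. On TPM, the coefficient of variation (SD over mean) had a median of 12.1% in the 52 genes, beside 12.4% in the 2921 other genes at 30 TPM or more and 12.0% in the 547 other TEC genes at 5 TPM or more. It ran from 2.69% for Gm43071 in Dram2, 3.04% for Gm37558 and 3.82% for Gm44951 to 58.5% for Gm38109. The other wide ones were 9930120I10Rik (26.6%), Gm44423 (24.4%), Gm37689 in Sdcbp (23.6%) and Gm49759 (22.8%).

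In Gm49759 the values were 31.3, 49.8 and 40.9 TPM while Pkm had 96.4, 138 and 156 TPM. Its model overlaps Pkm exons, and the part of this overlap in its spread was not tested. Its largest posterior SD, a deposited measure of uncertain read placing, was 2.86 counts. Its counts were 1352, 2536 and 2567 in replicates 1, 2 and 3. Without replicate 3 the median coefficient was 7.34%, and without replicates 1 and 2 it was 12.1% and 11.5%. Leaving out replicate 3 lowered the median by more than 1.5 times, and leaving out either of the others did not.

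Whether any gene varied more between replicates than its expression predicts was tested in edgeR, with the quasi-dispersion of each gene set against the trend over 14839 genes. None of the 51 TEC genes tested was called after Benjamini-Hochberg adjustment (lowest adjusted p = 0.963), and the background was 0 of 14839, or 0% of genes. This fit called none of the stromal markers either, which summed to 0.2, 2.15 and 668 TPM in replicates 1, 2 and 3. As it called no gene at all, the lack of calls does not show that the 51 vary only as the trend predicts. At an unadjusted p under 0.05, edgeR had 1 of the 51 (1.96%), A130071D04Rik, beside 747 of 14839 (5.03%). Without replicate 2 it had 4 of 51 (7.84%), beside 726 of 14884 (4.88%). Without replicate 1 it had 2 of 51 (3.92%), beside 781 of 15260, and without replicate 3 it had 2 of 51 (3.92%), beside 836 of 14603. The robust fit, the fit with no filter and that on genes with a mean of at least 50 counts had 0 of the TEC genes. The median F of the 51 genes, the quasi-dispersion relative to the trend, was 2.03 beside 0.797 over all genes tested. It was also above that of all genes in the other fits (3.44 beside 0.571 without replicate 2), except without replicate 3, where it was 0.432 beside 0.443. None of the 52 was called in any of the alternative fits either, while those fits called from 0 to 73 genes in all. Gm38109 had too few counts to be tested.

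Replicate 3 gave the lowest TPM for 38 of the 52 genes, replicate 1 for 10 and replicate 2 for 4. The highest TPM was in replicate 2 for 31, in replicate 1 for 17 and in replicate 3 for 4. These counts on TPM are not set beside other genes, so they need not be particular to the 52. Nuclear protein-coding, long non-coding and TEC genes together held 39.4%, 49.3% and 44.0% of all TPM in replicates 1, 2 and 3. On CPM (counts per library total) with TMM scaling (a factor that aligns the bulk of genes between libraries), 47 of 51 (92.2%) were higher in replicate 1 than in replicate 3. The share was 48.9% over all 14839 genes and 66.7% over the 2905 genes at 30 TPM or more. The median log2 ratio of the 51 was 0.42, beside -0.01 over all genes, 0.10 over the 2905 and 0.15 over 1103 other TEC genes. For replicate 1 over 2 it was 0.15 (40 of 51 higher, 78.4%), beside 0.10 (64.9%) over the 2905. For replicate 2 over 3 it was 0.21 (43 of 51 higher, 84.3%), beside 0.02 (52.8%) over the 2905. Over all genes these shares were 49.2% and 49.3%. The order of replicates 1 and 2 thus depended on the scale, with replicate 2 more often higher on TPM and replicate 1 on CPM. Relative to all genes it did not: the median for replicate 1 over 2, minus that of all genes, was 0.16 on CPM and 0.11 on TPM. With 1 library on each side no test of these ratios was possible.

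The hosts moved likewise. Their median log2 ratio was 0.33 for replicate 1 over 3, 0.20 for 1 over 2 and 0.10 for 2 over 3, over 37 hosts. Across 44 gene and host pairs, the log2 ratios of gene and host had a Pearson correlation of 0.74 between replicates 1 and 3. It was 0.53 between replicates 1 and 2 and 0.68 between replicates 2 and 3. The pairs share their libraries, and some share a host. Gm37390 had one of the wide ratios, 0.80 for replicate 1 over 3, and the exceptions that were higher in replicate 3 than in 1 were Gm44207, Gm47603, Gm49759 and Gm37058. Stromal markers summed to 668 TPM in replicate 3 and to 2.15 TPM or less in the others, and starting RNA was 1000, 250 and 500 ng in replicates 1, 2 and 3; their part in these ratios was not tested.

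Most of the genes rest on many reads. The median count was 1224 and the highest 4710, and in 50 of 52 the posterior SD of the count was under 1 in every library. This deposited value describes how far the placing of reads among annotated genes is uncertain, and no share over all genes is given beside it. The 42 intronic genes touch no exon of their host, so for them it does not cover reads of the host's unspliced RNA. The exceptions on depth were Gm37689 and Gm38109, with under 100 counts in every library. Their full sequences are shown because their shortness bears on their level (Gm37689 on chromosome 4, 6378018 to 6378292; Gm38109 on chromosome 17, 88533027 to 88533207; both on the plus strand). No letters are capital because neither holds a poly(A) hexamer.

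Gm37689: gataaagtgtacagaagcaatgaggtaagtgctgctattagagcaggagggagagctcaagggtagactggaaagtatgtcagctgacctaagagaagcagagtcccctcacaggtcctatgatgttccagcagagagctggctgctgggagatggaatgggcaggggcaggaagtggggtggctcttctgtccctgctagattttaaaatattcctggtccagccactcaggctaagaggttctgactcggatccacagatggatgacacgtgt
Gm38109: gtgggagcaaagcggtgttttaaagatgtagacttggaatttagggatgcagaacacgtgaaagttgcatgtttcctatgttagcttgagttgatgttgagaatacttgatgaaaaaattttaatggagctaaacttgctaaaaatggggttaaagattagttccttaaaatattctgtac

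Gm38109, inside the phosphatase regulator gene Ppp1r21, rested on 15, 4 and 5 counts in replicates 1, 2 and 3. The exact 95% Poisson intervals are 8.40 to 24.7, 1.09 to 10.2 and 1.62 to 11.7 counts and cover counting error only. Its effective length, the number of positions from which a fragment could come, was 18.9, 9.89 and 11.6 bases, which turned these counts into 67.7, 28.7 and 24.9 TPM. So few counts over so short an effective length leave its place in the group unsettled, and it was under 30 TPM in both of the deeper libraries.

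Gm37689 rested on 34, 40 and 45 counts, with intervals of 23.5 to 47.5, 28.6 to 54.5 and 32.8 to 60.2 counts. At effective lengths of 82.6, 50.3 and 58.4 bases these gave 35.0, 56.4 and 44.7 TPM. The intervals are on raw counts, and depth and effective length differ between the 3 libraries, so their overlap does not compare its levels.

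The same genes were compared in the read-based tables, which quantify transcripts directly from reads. There 44 of the 52 were at 30 TPM or more. The 8 others, with a median of 27.8 TPM there, were 5430434F05Rik, Gm19721, Gm36933, Gm37226, Gm43984, Gm45223, Gm47218 and Gm47603. A further 84 TEC genes reached 30 TPM in the read-based tables alone, of which 57 were under 5 TPM in the gene tables, so that 128 would be chosen there.

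Read-based levels of the 52 genes were mostly a little lower. The median log2 ratio of read-based over gene-table level was -0.21, on the scale of log2(TPM + 1), whereas it was 0.23 over the 2972 genes at 30 TPM or more. In 49 of 52 both values lay within 2-fold of each other. The 3 lowest ratios were 0.742 for Gm38346, 0.762 for Gm37084 and 0.762 for Gm49759.

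The exceptions lay the other way. Gm38109 had 231, 137 and 183 TPM read-based, 4.54 times its gene-table mean. Gm37689 had 143, 196 and 190 TPM, 3.89 times, and Gm43633, in the ADP-ribosyltransferase gene Parp11, had 103, 71.2 and 80.1 TPM against 37.0, 31.8 and 28.4 TPM, 2.62 times. In all 3 genes the read-based values exceeded the gene-table values in every library.

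Sequence shared with other annotated transcripts was counted as the share of each gene's 31-base words found in genes other than its host. It was 0 for 18 of the 52 genes. Words shared with the host were left out: 4.65% in Gm49730 and 4.55% in Gm44981, both among the 18, and 17.6% in Gm49759. Of 21 genes of 500 bases or more with under 1% shared, none was higher read-based (median ratio 0.853). Of the 12 with 5% or more shared, 8 were higher (median ratio 1.20). With 1% to 5% shared, 3 of 17 were higher (median ratio 0.836).

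Gm45553 and Gm37226 shared most, at 80.7% and 74.0% of words, and these are also the pair outside any gene. Gm45553 lies 6.28 kb after Spcs3, a signal peptidase subunit gene, and had 42.4, 49.8 and 40.8 TPM where Spcs3 had 6.97, 8.49 and 9.99 TPM. Its words recur in 268 other genes, most often in the TEC gene Gm43694, which was at 1.23 TPM. Gm37226 lies 2.42 kb after Mthfsl (75.4, 71.3 and 62.0 TPM) and had the values given above. It shares 2388 words with the TEC gene Gm37833 on the same chromosome, which was at 1.57 TPM. Gm37226 also had the highest posterior SD of the group, 5.74 counts, against 1190 to 1353 counts.

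**Figure D5:**
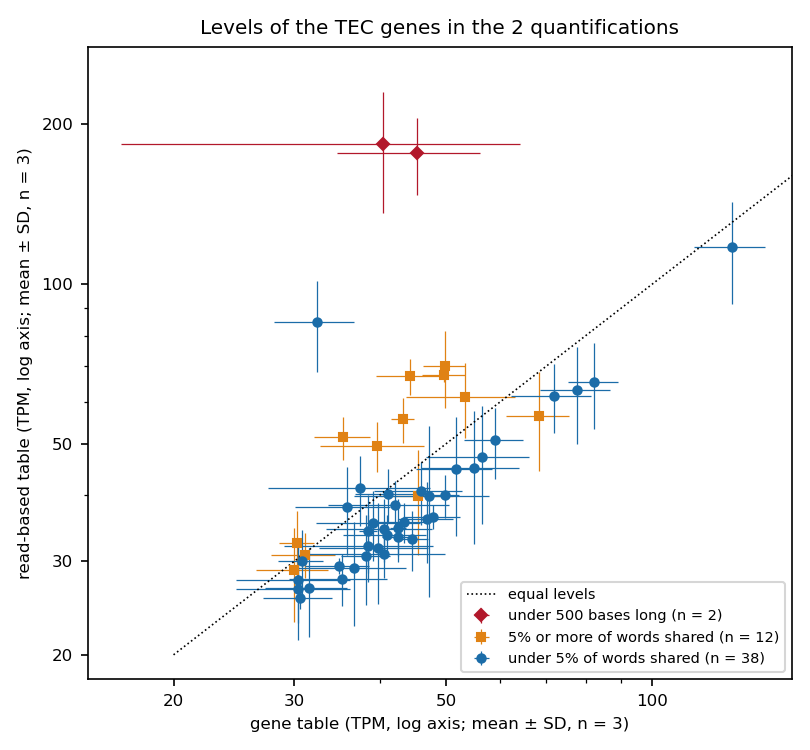
Level of each of the 52 TEC genes in the read-based tables (y axis, TPM) against the gene tables (x axis, TPM), mean ± SD of 3 libraries on log axes, by length and by the share of 31-base words found in annotated transcripts of genes other than the host. The 2 genes under 500 bases lie 3.89 and 4.54 times above the dotted line of equal levels, 8 of the 12 orange genes lie above it, and most blue genes lie below it.

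TEC models rest on tags with features of polyadenylation, the addition of a tail at the end of a finished transcript. Its usual signal in the genome is the hexamer AATAAA, or less often ATTAAA, shortly before the end. The last 60 bases of a few genes are shown, with each such hexamer in capitals, to set ends that have it beside ends that do not. They come from the GENCODE M21 transcripts, 5′ to 3′ on the strand of the gene.

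Gm43197: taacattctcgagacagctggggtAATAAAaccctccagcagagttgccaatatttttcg
5330406M23Rik: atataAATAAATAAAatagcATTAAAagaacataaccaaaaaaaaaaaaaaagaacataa
Gm44291: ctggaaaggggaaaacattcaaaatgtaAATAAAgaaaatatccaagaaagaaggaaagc
Gm37558: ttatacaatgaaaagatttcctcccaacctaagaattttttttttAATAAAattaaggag
9930120I10Rik: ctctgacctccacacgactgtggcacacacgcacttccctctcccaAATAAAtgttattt
Gm36638: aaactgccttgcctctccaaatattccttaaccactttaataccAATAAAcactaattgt
Gm49730: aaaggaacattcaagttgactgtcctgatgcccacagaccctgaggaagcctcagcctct
Gm37589: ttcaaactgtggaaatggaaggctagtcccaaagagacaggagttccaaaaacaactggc
Gm45640: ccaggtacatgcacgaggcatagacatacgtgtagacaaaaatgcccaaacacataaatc
Gm45828: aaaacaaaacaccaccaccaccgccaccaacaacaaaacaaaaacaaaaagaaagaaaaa
Gm37474: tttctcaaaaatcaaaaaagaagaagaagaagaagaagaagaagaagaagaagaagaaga

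Of the 52 genes, 10 (19.2%) had AATAAA or ATTAAA in their last 50 bases, searched on the strand of the gene, and 8 had AATAAA. The hexamer began 14 to 40 bases before the end in these 10. Among 3160 other TEC genes of at least 50 bases the share was 28.8% (910 genes). In consecutive windows of 50 bases upstream of the last, it was 4.94% of 2551 windows in the 52 genes and 6.08% of 126794 windows in the others. The hexamer was thus more frequent in last windows than upstream in both sets, and the genes at 30 TPM or more had it at a lower rate than other TEC genes, with no test made.

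Gm43197, the highest gene, is among the 10, and so are 5330406M23Rik, Gm44291, 9930120I10Rik, Gm37558 and Gm36638. The ends of Gm49730, Gm37589 and Gm45640, next in level, hold no hexamer. Several ends are rich in A: 71.7% of the last 60 bases in 5330406M23Rik, 65.0% in Gm45828 and 63.3% in Gm37474, where a GAA repeat runs to the end. At least 10 A among the last 20 bases were found in 10 of the 52 genes (19.2%) and in 635 of the other 3161 (20.1%). A match in these letters is a description of the model's sequence and does not show that an RNA ends there.

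Retained-intron transcripts, annotated forms of a gene that keep an intron, were compared between hosts and other genes. In the 31 protein-coding hosts at 30 TPM or more of same-strand genes, such transcripts took a median of 51.8% of the host's TPM, beside 43.0% in 2614 other protein-coding genes at that level. The hosts were also higher, at a median of 116 TPM beside 55.4 TPM. Fli1 and Mapkapk2 had none of their TPM in such transcripts, and Ube2k had 63.6%.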

How the data were processed

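Total RNA-seq of the chromatin fraction, after depletion of ribosomal RNA, was analysed in 3 libraries of 1 group. Expected counts and TPM were deposited by the authors per gene and per transcript, from an alignment to mm10 with GENCODE M21, and read-based estimated counts and TPM per transcript, per the README files of the deposited tables. Aligner, tool versions and strand setting: not given in the sources used here. TPM was scaled by the authors over all rows of each deposited table. The posterior standard deviation of the count, another deposited value, was used only to describe the placing of reads among annotated genes.

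TEC genes were classed against protein-coding and long non-coding genes of GENCODE M21 in this order: inside a same-strand gene and clear of its exons; touching its exons; within 10 kb downstream of one; overlapping an opposite-strand gene; within 2 kb of an opposite-strand start; none of these. A gene with several hosts was assigned to a protein-coding one first, then to the longest overlap. Read-based transcript values were summed per gene. Left out of the test were rows without a gene, with 1.31%, 0.476% and 0.240% of expected counts.

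Spread between replicates was fitted in edgeR 4.0.16 (R 4.3.3) after rounding expected counts, filtering by filterByExpr and scaling by TMM, in a model of the intercept alone; quasi-dispersions were tested against the trend with Benjamini-Hochberg adjustment over all genes at 0.05. The fit was also run on simulated counts with the same dispersion for every gene. That setting is simpler than the data, so the run does not show what the fit can call here. Ratios between libraries are of TMM-scaled CPM with 0.1 added. A pseudocount of 1 was added to TPM for ratios between tables. DESeq2 1.42.0 gave alternative size factors. Other steps ran in Python 3.11.15 with pandas 2.3.3, numpy 2.4.6 and scipy 1.17.1, and plots in matplotlib 3.10.9.

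The genes, host lists and tests were chosen with earlier results of these data known. Named are the 12 highest genes, the 3 lowest and the 3 just under the threshold, the 5 highest and 3 lowest ratios to a host, the 5 largest and 3 smallest coefficients of variation, the 3 largest differences between tables in each direction, genes of the 5 hosts with most of them, genes outside any host, and the highest of each host list, each with its host; others were named after their values were seen. Alternatives were other tables, rescaled TPM, other filters, windows and pseudocounts, and leaving out each library. Chosen after seeing the data were the robust fit, the upstream windows for the hexamers, the count over protein-coding hosts alone and the intronic count without each library.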

Additional observations from a re-analysis of the deposited data

How the results depend on the processing

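Of 51 values computed under another choice for 11 results, 41 stayed within the limits set for a change (1.5 times for counts, the spread between libraries for values). With TPM rescaled over nuclear protein-coding, long non-coding and TEC genes, which hold 39.4%, 49.3% and 44.0% of all TPM in replicates 1, 2 and 3, 238 TEC genes in place of 52 reached 30 TPM. On read-based TPM 128 reached it, 68 of them inside same-strand introns in place of 42, so that this share fell from 80.8% to 53.1%. Leaving out 1 library gave 49 to 53 genes, 39 to 43 of them in same-strand introns. Within 5 kb downstream, 1 gene remained in place of 2. The 9 genes at or above their host became 2 read-based and 18 against hosts without retained-intron transcripts, and stayed 9 without any 1 library. The median coefficient of variation of 12.1% became 15.2% read-based, 15.02% on rescaled TPM and 16.4% on TMM-scaled CPM, and 7.34% to 12.1% without 1 library. The other ratios between libraries, those between tables (-0.30 to -0.09 without 1 library) and the hexamer counts stayed within the limits, and none of the 52 genes was called more variable than the trend in any fit. The causes of these changes were not tested. No paired analysis was possible because there is only 1 group. The search for A-rich sequence after the genes' ends was not run, since no genome was used here. With 3 libraries of 1 group, levels carry the spread of these samples only, and genes near 30 TPM or with few counts are not resolved.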
